A study of Mus musculus with 12 samples.

Results

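The genes described here are 10 that mark alveolar type 1 (AT1) cells, *Ager*, *Hopx*, *Pdpn*, *Aqp5*, *Rtkn2*, *Cav1*, *Clic5*, *Emp2*, *Akap5* and *Igfbp2*. They were taken by symbol from the table of read counts, where all 10 are among the 39017 genes listed, and all 10 are among the 16527 genes that passed the filter on low counts and were tested. RNA had been sequenced from 12 lung tumors of 9 C57BL/6J mice, 3 tumors in each of 4 groups, from the CD45-negative fraction, which magnetic sorting had depleted of immune cells. All mice carried Trp53 Flox/Flox and a CCSP-rtTA transgene, in which the club cell secretory protein promoter drives the doxycycline-responsive activator. All received 6000 viral units of one lentivirus into the trachea, in which Cre under the PGK promoter starts tumors and the doxycycline-responsive TRE promoter drives PPARαΔ13, a truncated PPARα nuclear receptor with dominant negative action. KP mice were wild type for *Slc2a1*, the gene of the glucose transporter Glut1, and KPG1 mice carried Slc2a1 Flox/Flox. In the groups labelled KP-PPARαΔ13 and KPG1-PPARαΔ13 the diet held doxycycline (625 mg/kg) over 15 days, and in KP and KPG1 it was regular, so that doxycycline and the induced protein cannot be told apart. Tumors were dissected 26 weeks after initiation. By a number in the labels that is read as the mouse, KP replicates 1 and 2 came from one mouse, as did KPG1 replicates 1 and 2 and KPG1-PPARαΔ13 replicates 1 and 3, so tumors of a group are not all independent animals. KP tumors were all female and KPG1 tumors all male, and the doxycycline groups held both sexes.

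AT1 cells are the thin, flat cells that cover most of the gas-exchange surface of the lung, and alveolar type 2 (AT2) cells are the cuboidal, surfactant-making cells that can divide and give rise to them. The passage from AT2 to AT1 runs through an intermediate keratin 8-high state, and the transcription factors NKX2-1, YAP and TAZ (gene *Wwtr1*) with their TEAD partners hold the AT1 program. Lung adenocarcinomas often arise from AT2 cells and can turn on parts of the AT1 and intermediate programs. In RNA pooled over the sorted cells of a tumor, fewer cells of a type and less RNA per cell cannot be told apart, nor can tumor cells and normal alveolar cells caught in the dissection.

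Each tumor had between 25263794 and 32654223 counted reads, and levels are given on the counts-per-million (CPM) scale after TMM normalization. *Igfbp2* had at most 1.0 CPM in any tumor and is the gene that depth limits most. *Ppara*, which the induced transgene should raise, went against the label of a tumor. It had 15.7, 10.5 and 9.54 CPM in KP, and 2.71, 64.6 and 246.1 CPM in the tumors labelled KP-PPARαΔ13, where replicate 1 lay below all KP tumors. *Ppara* had 7.24, 10.5 and 15.3 CPM in KPG1 and 8.90, 19.2 and 17.7 CPM in the tumors labelled KPG1-PPARαΔ13, and these groups overlapped. *Slc2a1* had 41.7, 35.3 and 57.7 CPM in KP and 30.2, 64.0 and 39.9 CPM in the tumors labelled KPG1, which overlapped as well, so the groups are named by their labels throughout. The paper reports results that run the way the labels say, but not as a separate check of the tumors described here. It used real-time PCR and staining to check the Glut1 deletion. It does not say that the tumors described here were among those measured. It also reports PPARα-related pathways repressed with PPARαΔ13 in both KP and KPG1 tumors. That result came from gene expression of tumors grouped by the same labels, so it is not independent of them.

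Markers of AT2 cells and most AT1 genes were abundant in these tumors. *Sftpc*, the surfactant protein C gene that defines AT2 cells, had between 5540 and 29952 CPM, and none of the AT1 or AT2 markers was at 0 in all tumors. Per length, on the transcripts-per-million (TPM) scale over the union of a gene's exons, *Ager* led the 10 genes, with a median level of 1833 TPM over the 12 tumors (range 281.8 to 2608). It stood above *Aqp5* in 12 of 12 tumors. *Aqp5* followed with a median level of 411.5 TPM, *Emp2* with 242.7, *Pdpn* with 148.6, *Hopx* with 119.6 and *Clic5* with 111.9. The order among these is not firm. *Aqp5* exceeded *Emp2* in 8 of the 12 tumors, *Pdpn* exceeded *Hopx* in 7, and *Hopx* exceeded *Clic5* in 8. With the longest transcript as the length, *Clic5* moved from the sixth to the fourth place. *Akap5* had a median level of 58.7 TPM, *Cav1* of 43.1, *Rtkn2* of 8.26 and *Igfbp2* of 1.29, and each of *Cav1* and *Rtkn2* was above the next in 12 of 12 tumors.

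What stood out across all 10 genes was a single tumor. KP replicate 2 had the lowest level of the 12 tumors for 9 of the 10 genes, and the highest for *Igfbp2*. Of all genes tested, 14.5% were lowest in that tumor. It was also the tumor with the most genes at their highest level, 15.8% of all tested. KP-PPARαΔ13 replicate 3 held the highest level of 5 of the 10 genes, against 11.4% of all genes, and KP-PPARαΔ13 replicate 2 of 3, against 9.84%. KP replicate 2 was singled out after its values were seen, so its distance from the rest is given as a description. The median fold changes of the 10 genes against KP, and those of some single genes, are given with and without it. Its total count of 30976130 was the highest of its group, and the sources used here give no batch.

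**Figure D1:**
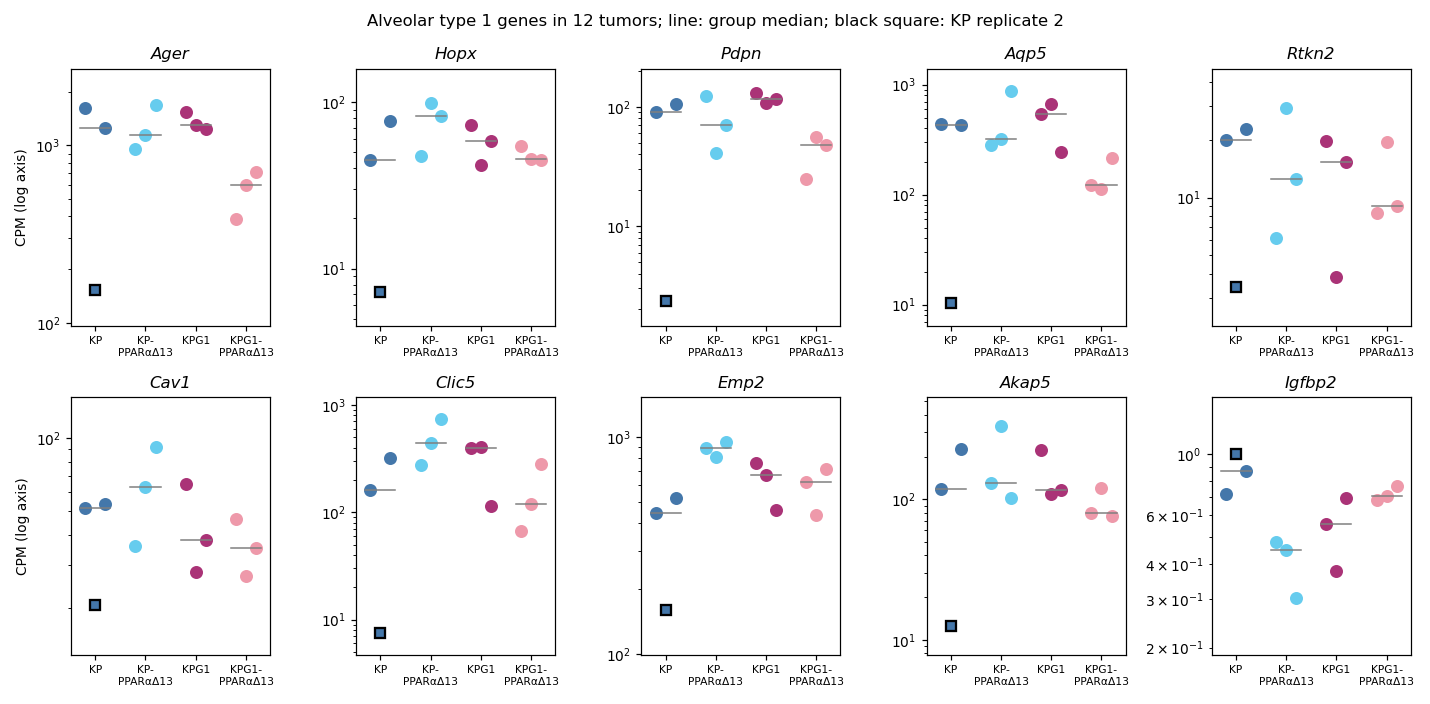
Level of each of the 10 genes in every tumor, in CPM after TMM scaling on a log axis, by group, with the group median as a line. KP replicate 2 is the black-edged square, at the bottom for 9 of the 10 genes and at the top for *Igfbp2*, which stays at or under 1.0 CPM everywhere.

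*Ager* (ENSMUSG00000015452; mm10 chromosome 17, 34597862 to 34600936, plus strand) encodes the receptor for advanced glycation end products, a receptor of the immunoglobulin superfamily on the basal AT1 membrane. It had 1614, 154 and 1246 CPM in KP and 955, 1143 and 1693 CPM in KP-PPARαΔ13. KPG1 tumors had 1552, 1300 and 1233 CPM, and KPG1-PPARαΔ13 tumors 386, 599 and 710 CPM. The 3 KPG1-PPARαΔ13 tumors lay below all tumors of KP-PPARαΔ13 and KPG1, and of all 12 tumors only KP replicate 2 was lower than they were. *Aqp5* (ENSMUSG00000044217; chromosome 15, 99590782 to 99594829, plus strand), the water channel of the apical AT1 membrane, had 442, 10.3 and 433 CPM in KP and 283, 319 and 874 CPM in KP-PPARαΔ13. In KPG1 it had 546, 673 and 246 CPM and in KPG1-PPARαΔ13 122, 113 and 214 CPM. It showed the same order as *Ager* at the low end, with KPG1-PPARαΔ13 below every tumor but KP replicate 2.

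*Pdpn* (ENSMUSG00000028583; chromosome 4, 143267431 to 143299564, minus strand) encodes podoplanin, a mucin-type surface protein of AT1 cells that lymphatic endothelium and mesothelium also make. It had 90.3, 2.33 and 107 CPM in KP and 124, 40.8 and 70.7 CPM in KP-PPARαΔ13. In KPG1 it had 131, 107 and 117 CPM and in KPG1-PPARαΔ13 24.9, 55.5 and 48.1 CPM. The 3 KPG1 tumors were tightly grouped and lay above all 3 KPG1-PPARαΔ13 tumors. The lymphatic gene *Lyve1* had between 9.78 and 30.4 CPM, and the mesothelial gene *Msln* between 2.36 and 294.3 CPM, highest in the 3 KP-PPARαΔ13 tumors. Their part in the *Pdpn* values was not tested.

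*Emp2* (ENSMUSG00000022505; chromosome 16, 10281749 to 10313968, minus strand) encodes a tetraspan membrane protein that is abundant in AT1 cells and acts in caveolin and integrin trafficking. It had 445, 159 and 526 CPM in KP and 890, 805 and 950 CPM in KP-PPARαΔ13. In KPG1 it had 758, 669 and 461 CPM and in KPG1-PPARαΔ13 622, 438 and 714 CPM. The 3 KP-PPARαΔ13 tumors were the highest of the 12. *Clic5* (ENSMUSG00000023959; chromosome 17, 44188584 to 44280172, plus strand), of the chloride intracellular channel family and tied to the ezrin cytoskeleton, had 162, 7.55 and 319 CPM in KP and 278, 439 and 731 CPM in KP-PPARαΔ13. In KPG1 it had 398, 408 and 115 CPM and in KPG1-PPARαΔ13 67.5, 118 and 282 CPM. Its groups overlapped in each of the 4 comparisons.

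*Cav1* (ENSMUSG00000007655; chromosome 6, 17306335 to 17341452, plus strand), the coat protein of caveolae in AT1 cells and in endothelium, had 51.5, 20.6 and 53.8 CPM in KP and 36.1, 63.2 and 91.9 CPM in KP-PPARαΔ13. In KPG1 it had 64.8, 28.1 and 38.0 CPM and in KPG1-PPARαΔ13 46.7, 27.0 and 35.4 CPM. Of the 9 genes lowest in KP replicate 2, this one was the least far below the median of the others, 2.27-fold. *Akap5* (ENSMUSG00000021057; chromosome 12, 76324891 to 76334153, plus strand), which anchors protein kinase A at the membrane, had 119, 12.5 and 229 CPM in KP and between 75.4 and 331 CPM in the other 9 tumors. *Rtkn2* (ENSMUSG00000037846; chromosome 10, 67979570 to 68059740, plus strand) had 20.1, 3.43 and 23.0 CPM in KP, while KPG1 replicate 2, with 3.86 CPM, was nearly as low as KP replicate 2 and the other 8 tumors lay between 6.14 and 29.5 CPM.

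*Hopx* (ENSMUSG00000059325; chromosome 5, 77086988 to 77115121, minus strand) encodes a small homeodomain protein that does not bind DNA by itself and marks AT1 cells and some AT2 cells. It had 44.5, 7.25 and 77.0 CPM in KP, and the other 9 tumors ranged from 42.1 to 99.2 CPM. *Igfbp2* (ENSMUSG00000039323; chromosome 1, 72824503 to 72852474, plus strand), a secreted binding protein of insulin-like growth factors that marks fully mature AT1 cells, had 0.72, 1.0 and 0.87 CPM in KP and 0.48, 0.45 and 0.30 CPM in KP-PPARαΔ13. In KPG1 it had 0.56, 0.38 and 0.69 CPM and in KPG1-PPARαΔ13 0.68, 0.70 and 0.77 CPM. All 3 KP-PPARαΔ13 tumors lay below all 3 KP tumors, at levels that stand for few reads.

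The upstream sequences of *Ager*, *Pdpn* and *Emp2*, picked among genes whose groups did not overlap in a PPARαΔ13 comparison, are shown. They come from RefSeq (build GRCm38.p6), which has a start-site window for 9 of the 10 genes. *Ager* and *Pdpn* were lower in every KPG1-PPARαΔ13 tumor than in KPG1, and *Emp2* was higher in every KP-PPARαΔ13 tumor than in KP. The window of *Aqp5* overlaps an annotated exon and is left out. *Igfbp2*, which was lower in every KP-PPARαΔ13 tumor than in KP, is not shown either. Each run gives the 250 bases before the start site in the gene's direction, with matches to the motifs named after them in capitals. The runs lie at chr17:34597600-34597849 (plus strand), chr4:143299565-143299814 (minus strand) and chr16:10313969-10314218 (minus strand).
Ager: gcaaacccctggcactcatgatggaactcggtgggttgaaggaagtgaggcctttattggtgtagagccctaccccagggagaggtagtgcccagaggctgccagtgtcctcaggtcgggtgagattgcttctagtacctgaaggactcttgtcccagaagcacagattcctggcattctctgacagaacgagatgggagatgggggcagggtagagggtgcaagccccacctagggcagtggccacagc
Pdpn: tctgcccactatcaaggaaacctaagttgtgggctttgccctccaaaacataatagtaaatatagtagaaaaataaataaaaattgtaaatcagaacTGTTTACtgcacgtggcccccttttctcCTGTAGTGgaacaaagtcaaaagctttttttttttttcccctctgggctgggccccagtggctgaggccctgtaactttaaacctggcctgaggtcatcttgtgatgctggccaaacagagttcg
Emp2: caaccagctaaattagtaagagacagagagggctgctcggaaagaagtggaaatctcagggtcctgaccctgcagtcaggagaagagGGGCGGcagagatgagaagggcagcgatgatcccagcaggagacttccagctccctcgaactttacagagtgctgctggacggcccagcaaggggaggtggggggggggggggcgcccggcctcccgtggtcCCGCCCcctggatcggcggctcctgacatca

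In these 250 bases, 6 short motifs were searched on both strands in the 12 windows of the 9 genes (*Hopx*, *Cav1* and *Igfbp2* have more than 1 start site) and in all 32851 windows. The TEAD motif GGAATG was in 0 of the 12 windows and in 12.6% of all. The PPAR direct repeat was in 0 of 12 and in 0.338% of all. The NKX2-1 motif, written CACTNNAG, was in 2 (*Pdpn* and *Akap5*) against 12.9% of all, the FOXA motif TGTTTAC in 1 (*Pdpn*) against 3.17%, and the AP-1 motif TGANTCA in 1 (*Igfbp2*) against 6.75%. The GC box GGGCGG was in 6 against 32.7%. The *Pdpn* sequence above carries the FOXA and NKX2-1 letters, *Emp2* a GC box on each strand, and *Ager* none of the 6. *Pdpn* had the lowest share of G and C in this stretch, 43.2%, and *Aqp5* the highest, 78.4%, around a median of 52.4% over all windows. A match is only a run of letters in this window, and bound sites were not measured.

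KP replicates 1 and 2 allow the difference between tumors of one animal to be read. *Aqp5* was 43.0-fold, *Pdpn* 38.7-fold, *Clic5* 21.5-fold and *Ager* 10.5-fold higher in replicate 1 than in replicate 2 of that mouse. Only 0.230%, 0.327%, 0.793% and 1.91% of all genes tested, in that order, were further apart between these tumors. *Akap5* differed 9.48-fold, *Hopx* 6.15-fold, *Rtkn2* 5.86-fold, *Emp2* 2.80-fold and *Cav1* 2.5-fold, all in the same direction. In the mouse of KPG1 replicates 1 and 2, *Ager* differed 1.19-fold, *Aqp5* 1.23-fold, *Pdpn* 1.22-fold and *Clic5* 1.02-fold, and the largest ratio was 5.12-fold for *Rtkn2*. In the mouse of KPG1-PPARαΔ13 replicates 1 and 3 the largest was 4.18-fold for *Clic5*, with *Ager* at 1.84-fold. Each of these is 1 pair of tumors, so no test was made.

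Other gene lists show how far the low AT1 levels of KP replicate 2 extend. Against the median of the other 11 tumors, on a log2 scale with 0.5 CPM added, its median ratio was -2.92 over the 10 genes and 0.01 over all genes tested. It was -1.57 over 20 further AT1 genes, of which 17 were lowest in KP replicate 2. Among these, *Gramd2* was at 7.09 CPM against a median of 51.2, *Lmo7* at 71.6 against 536.5 and *S100a6*, the most abundant, at 188 against 1057, whereas *Spock2* was highest there, at 11.4 against 2.69. All 10 targets of YAP and TAZ were lowest in this tumor (median ratio -1.86), with *Ctgf*, a secreted matrix protein, at 12.6 CPM against 45.1 and *Cyr61* at 18.9 against 122. The nucleotidase gene *Nt5e*, the most abundant of these targets, was at 15.8 CPM against 169.

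Of the 13 regulators, 3 were lowest in KP replicate 2 (*Wwtr1*, *Tead4* and *Lats2*), next to 14.5% of all genes, and the median ratio of the list was -0.12. *Wwtr1* (TAZ) was at 25.9 CPM there and between 75.1 and 147 CPM in the other tumors, while *Yap1* was at 146 CPM (92.5 to 167 elsewhere), *Tead1* at 126 (95.1 to 145) and *Nkx2-1* at 284 (208 to 533). *Tead4* was at 7.0 CPM (12.7 to 43.8 elsewhere) and *Lats2*, a kinase that acts on YAP and TAZ, at 15.8 (29.2 to 48.6). The AT2-AT1 intermediate genes had a median ratio of -2.03, with 11 of 15 lowest in this tumor. *Krt8* was at 512 CPM against a median of 1217, *Krt18* at 491 against 1196 and *Krt19* at 162 against 459. *Clu*, which encodes the secreted chaperone clusterin and is the most abundant of these genes, was at 633 CPM against 7802.

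AT2 genes were nearer to the other tumors, with a median ratio of -0.44 and 1 of 10 lowest in KP replicate 2. *Sftpc* was at 6907 CPM against 15077, *Sftpb* at 9626 against 14121 and *Sftpa1* at 4797 against 5415. The endothelial list had a median ratio of -0.53, with *Pecam1* at 40.4 CPM against 57.6 and *Cdh5* at 35.5 against 45.5 and *Kdr* at 21.6 against 30.3. Of these 10 markers, 3 were lowest in KP replicate 2, *Cldn5* (2.64-fold below the median of the others), *Emcn* (2.15-fold) and *Tek* (1.62-fold). The fibroblast list had -0.66, the smooth muscle and pericyte list -0.68, the mesothelial list -0.23, the club and ciliated list -0.64, the leukocyte list -0.59 and the red blood cell list -1.22, and the lymphatic list was higher, at 0.33. The summed level of the 10 AT1 genes was 378 CPM in KP replicate 2 and 1413 to 4609 CPM in the others. The sums of that tumor were also the lowest of the 12 for the mesothelial list (3.49 CPM against 8.36 to 295.6), where *Msln* was 22.8-fold below the median of the others, the smooth muscle and pericyte list (47.8 against 60.9 to 352.3) and the red blood cell list (319 against 583 to 1421). They were the lowest as well for the further AT1 genes (990 CPM against 2230 to 6235), the intermediate genes (3415 against 8617 to 21287) and the YAP and TAZ targets (112 against 347 to 1350). Its endothelial sum, 199 CPM, was inside the range of the others, which was 140 to 841 CPM, and so was the AT2 sum of 28677 CPM within 24281 to 79494. KP-PPARαΔ13 replicate 3 had the highest sum of the 10 AT1 genes, 4609 CPM. Its sums were also the highest for the further AT1 genes (6235 CPM) and the YAP and TAZ targets (1350 CPM). The same held for the endothelial (841 CPM), lymphatic (56.8 CPM) and mesothelial (295.6 CPM) lists, but not for the AT2, intermediate or fibroblast lists. The part of normal tissue in these differences was not tested.

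**Figure D2:**
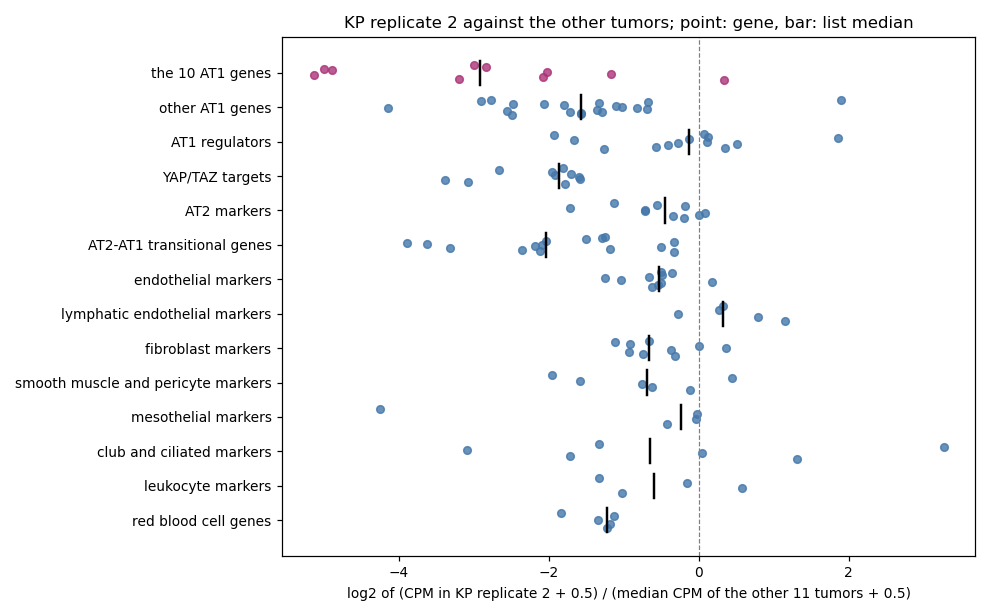
Level in KP replicate 2 relative to the median of the other 11 tumors, as a log2 ratio with 0.5 CPM added, for each tested gene of 14 lists, with the list median as a bar. The AT1 genes, the YAP and TAZ targets and the intermediate genes lie far to the left, with medians of -2.92, -1.86 and -2.03, and the AT2 markers near 0, at -0.44.

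The first comparison asks what PPARαΔ13 and doxycycline went with in tumors wild type for *Slc2a1*. In tumors labelled KP-PPARαΔ13 against KP, 9 of the 10 genes had a higher fitted level and the median log2 fold change was 0.62, against -0.01 over all genes tested. None of the 10 passed an adjusted p of 0.05 in edgeR's quasi-likelihood test, where 0.00605% of all genes did, and at an unadjusted p under 0.05 there were 2, *Emp2* and *Igfbp2*, against 1876 of the 16527 genes. DESeq2 and limma voom called none of the 10 either, while DESeq2 called 372 of all genes and limma voom 1. *Emp2* had 377 ± 193 CPM in KP and 882 ± 72.8 CPM in KP-PPARαΔ13 (SD, n = 3 per group), which gave a log2 fold change of 1.23 (SE 0.384, adjusted p = 0.327 in edgeR, 0.0694 in DESeq2). *Igfbp2* was lower, with a log2 fold change of -1.06 (SE 0.406, edgeR adjusted p = 0.378), and *Clic5* had the highest value of the 10, 1.57 (SE 0.965, edgeR adjusted p = 0.580). With all tumors, groups without overlap numbered 1 of the 10 genes upward, *Emp2*, against 6.55% of all genes, and 1 downward, *Igfbp2*, against 6.7%.

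Without KP replicate 2, 6 of the 10 genes were higher and the median log2 fold change was 0.14. *Ager* went from 0.33 (SE 0.603) to -0.18 (SE 0.322) and *Pdpn* from 0.24 (SE 0.864) to -0.33 (SE 0.423). *Emp2* went from 1.23 to 0.86 (SE 0.282, edgeR adjusted p = 0.687), and *Clic5* from 1.57 to 1.00 (SE 0.692, edgeR adjusted p = 0.838). Of the other lists, YAP and TAZ targets were higher in 10 of 10 cases (median log2 fold change 1.34, and 0.91 without KP replicate 2), and none of them passed the adjusted threshold. *Ankrd1*, a nuclear ankyrin repeat protein, had the highest value of these targets, 3.54 with all tumors and 3.04 without KP replicate 2 (edgeR adjusted p = 0.305 and 0.687). The intermediate genes were higher in 15 of 15 cases (median 0.71), and without KP replicate 2 in 14 of 15 (median 0.425). The 20 further AT1 genes were higher in 15 of 20 cases in both fits, with medians of 0.741 and 0.405. The endothelial list turned, from 10 of 10 higher (median 0.15) to 8 of 10 lower (median -0.13). Fibroblast markers were higher in 8 of 9 cases in both fits (medians 1.15 and 0.94), and red blood cell genes in 4 of 5 (medians 1.47 and 1.18). The mesothelial gene *Msln* had 3.08 with all tumors and 2.54 without KP replicate 2 (edgeR adjusted p = 0.345 and 0.704). The AT2 markers were lower in 8 of 10 cases in both fits (medians -0.37 and -0.57), with *Sftpc* lowest at -0.83 and -1.19. The club and ciliated list went from 5 to 6 of 6 lower (medians -0.45 and -0.67), as did the smooth muscle and pericyte list (medians -0.30 and -0.59). Among the regulators, *Tead2*, a TEAD family member, had the lowest value, -2.41 and -1.68 (edgeR adjusted p = 0.305 and 0.687). Their part in the AT1 values was not tested.

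The second comparison asks the same in tumors with floxed *Slc2a1*. In tumors labelled KPG1-PPARαΔ13 against KPG1, 9 of the 10 genes had a lower fitted level and the median log2 fold change was -0.49, against 0.02 over all genes tested. *Ager*, *Aqp5* and *Pdpn*, 3 of the 10 genes, were lower without overlap between the groups, as were 9.41% of all genes, and 0 of the 10 were higher without overlap, against 11.2% of all genes. None passed an adjusted p of 0.05 in edgeR, DESeq2 or limma voom. Over all genes, edgeR called 0.00605%, DESeq2 called 211 genes and limma voom 0. None of the 10 had an unadjusted p under 0.05 in edgeR, against 1777 of all genes. *Ager* went from 1362 ± 168 CPM to 565 ± 165 CPM (SD, n = 3 per group), which gave a log2 fold change of -1.27 (SE 0.612, edgeR adjusted p = 0.490). *Aqp5* had -1.71 (SE 0.939, edgeR adjusted p = 0.533) and *Pdpn* -1.47 (SE 0.881, edgeR adjusted p = 0.569).

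These standard errors rest on all 12 tumors, so that KP replicate 2 widens them although it is in neither group. With it left out of the fit, an alternative added after seeing the data, *Ager* had the same log2 fold change of -1.27 with an SE of 0.294 (edgeR adjusted p = 0.284), *Pdpn* -1.47 with 0.389 (edgeR adjusted p = 0.295) and *Aqp5* -1.71 with 0.491 (edgeR adjusted p = 0.303). These 3 genes then had an unadjusted p under 0.05, against 2091 of all 16896 genes tested, and none of the 10 passed the adjusted threshold. The planned fit of the compared groups alone, which leaves that tumor out as well, gave *Ager* an SE of 0.271 (edgeR adjusted p = 0.189), *Pdpn* 0.299 (edgeR adjusted p = 0.181) and *Aqp5* 0.417 (edgeR adjusted p = 0.206). In the planned fit with tumors summed by mouse, each of these groups holds 2 mice. There *Ager* had -1.20 (SE 0.347, edgeR adjusted p = 0.608), *Pdpn* -1.35 (SE 0.558, edgeR adjusted p = 0.680) and *Aqp5* -1.60 (SE 0.664, edgeR adjusted p = 0.680). These adjusted p were higher than in the fit of all 12 single tumors. The groups also differ in sex, as KPG1 tumors were all male and KPG1-PPARαΔ13 tumors were 2 female and 1 male. With sex as a covariate *Pdpn* went from -1.47 to -0.87, *Ager* from -1.27 to -1.16 and *Aqp5* from -1.71 to -1.60. The edgeR adjusted p of each was then 0.999. In the fit of all 12 tumors, the remaining genes had log2 fold changes between -0.98 for *Clic5* and 0.40 for *Igfbp2*.

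Other cell type lists moved with this comparison. The AT2 markers were lower in 10 of 10 cases, with a median log2 fold change of -0.89 and 7 of 10 without overlap, next to 9.41% of all genes, among them *Lamp3*, a lamellar body membrane protein, with the lowest value of -1.88. The endothelial markers were lower in 10 of 10 cases, with a median of -0.69 and none without overlap. The 20 further AT1 genes had a median of -0.08, with 9 higher and 11 lower, the YAP and TAZ targets 0.27, and the intermediate genes 0.28. No gene of these 5 lists passed the adjusted threshold. The hemoglobin gene *Hba-a2*, the one gene called anywhere in the lists, had a log2 fold change of 7.72 (edgeR adjusted p = 0.0105), and of -5.99 in KPG1 against KP (edgeR adjusted p = 0.0248), but it has a near-identical copy, *Hba-a1*, between which the counting could split reads, and is uncertain. The part of these differences in the AT1 values was not tested.

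**Figure D3:**
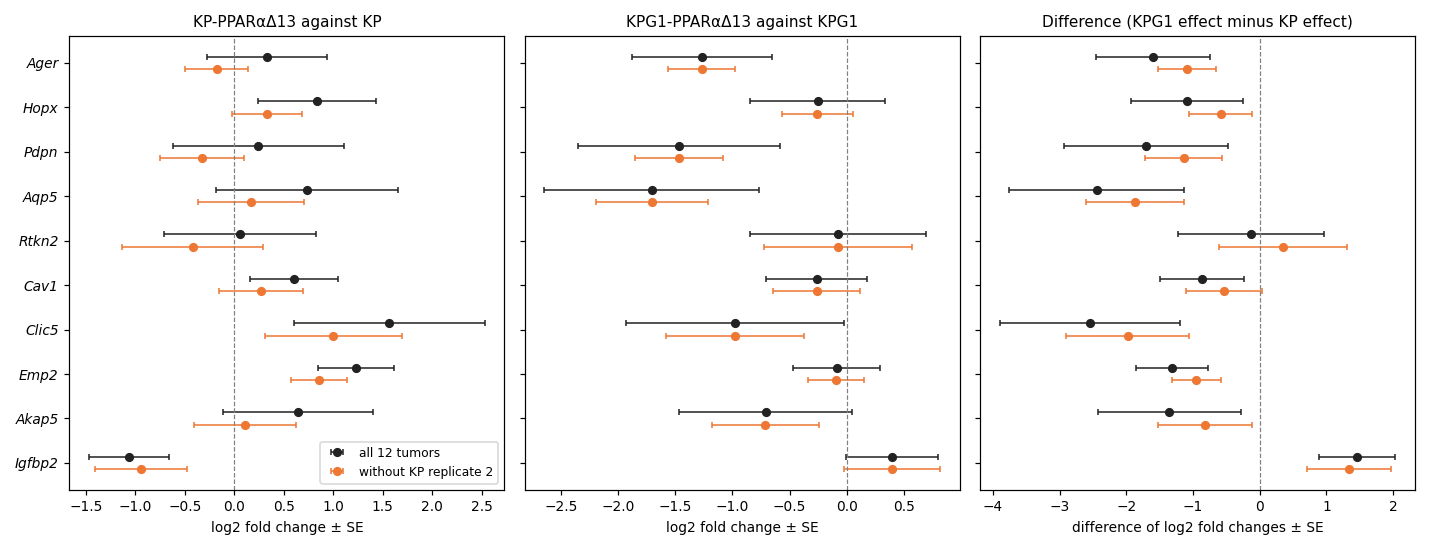
Log2 fold change of the 10 genes with its standard error for both PPARαΔ13 comparisons, and the difference between them, from edgeR with all 12 tumors (black) and without KP replicate 2 (orange). Leaving that tumor out moves *Ager* from 0.33 to -0.18 in KP and leaves it at -1.27 in KPG1, with a smaller error.

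The difference between these effects, the interaction of PPARαΔ13 with the *Slc2a1* genotype, was below 0 for 9 of the 10 genes, with a median of -1.33 on the log2 scale against 0.03 over all genes tested. edgeR called none of the 10 genes and 0% of all genes at an adjusted p of 0.05. At an unadjusted p under 0.05 there were 2 of the 10, *Emp2* at -1.32 (SE 0.537, edgeR adjusted p = 0.399) and *Igfbp2* at 1.46 (SE 0.571, edgeR adjusted p = 0.389), against 1952 of all genes. DESeq2 called none of the 10, and 286 of all genes. Without KP replicate 2 the median was -0.88, *Ager* had -1.09 (SE 0.439, edgeR adjusted p = 0.664) and *Aqp5* -1.87 (SE 0.732, edgeR adjusted p = 0.664), and 3 of the 10 had an unadjusted p under 0.05, against 1242 of all genes. An effect in KPG1 tumors that is absent from KP tumors was therefore not shown for any of these genes. Other lists moved with these genes. Endothelial markers were below 0 in 10 of 10 cases (median -0.885), and AT2 markers in 9 of 10 (median -0.799). Fibroblast markers were below 0 in 7 of 9 cases (median -1.05). Without KP replicate 2 these medians were -0.57, -0.605 and -0.738. The YAP and TAZ targets were below 0 in 9 of 10 cases (median -0.83), and without KP replicate 2 in 8 of 10 (median -0.366). The further AT1 genes were below 0 in 15 of 20 cases (median -0.589), and without that tumor in 12 of 20 (median -0.291). The intermediate genes were below 0 in 13 of 15 cases (median -0.51), and without it in 10 of 15 (median -0.177). The lymphatic and the club and ciliated lists had medians above 0, at 0.291 and 0.837. Their part in the AT1 values was not tested.

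The genotypes were also compared on each diet, in comparisons that reuse the same tumors. On the regular diet, tumors labelled KPG1 against KP, 8 of the 10 genes were higher with a median log2 fold change of 0.43, and without KP replicate 2 it was 4 of 10 with a median of -0.07. None of the 10 passed an adjusted p of 0.05 in edgeR, which called 0.0363% of all genes, and none had an unadjusted p under 0.05, against 1030 of all genes. 1 of the 10 was higher without overlap, *Pdpn*, where 4.82% of all genes were, and 1 was lower, *Igfbp2*, where 5.13% were. Without KP replicate 2, *Rtkn2* was lower without overlap as well, and the counts over all genes were then 1525 higher and 1597 lower of 16896. The AT2 markers were higher in 8 of 10 cases with all tumors (median 0.33) and in 7 of 10 without KP replicate 2 (median 0.14). The lymphatic list was lower in 5 of 5 cases in both (medians -1.05 and -0.96), the leukocyte list in 4 and 3 of 4 (medians -0.57 and -0.87), and the endothelial list in 5 and 10 of 10 (medians -0.01 and -0.31). Their part in the AT1 values was not tested. These groups differ in sex as well as genotype, and with sex as a covariate, estimated from the doxycycline groups, *Pdpn* went from 0.83 to -0.10 on the log2 scale. Without KP replicate 2 *Pdpn* had 0.27, and without KP replicate 3 it had 1.35.

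On doxycycline, in tumors labelled KPG1-PPARαΔ13 against KP-PPARαΔ13, 9 of the 10 genes were lower, with a median log2 fold change of -0.84 against 0.01 over all genes tested. *Ager*, *Aqp5* and *Emp2*, 3 of the 10, were lower without overlap, where 7.25% of all genes were, and 1, *Igfbp2*, was higher, where 10.3% were. None passed an adjusted p of 0.05 in edgeR, which called 0.0303% of all genes, and none had an unadjusted p under 0.05, against 1601 of all genes. *Ager* had a log2 fold change of -1.16 (SE 0.611, edgeR adjusted p = 0.548), *Aqp5* of -1.72 (SE 0.939, edgeR adjusted p = 0.560) and *Emp2* of -0.58 (SE 0.380, edgeR adjusted p = 0.623). With KP replicate 2 left out of the fit, 5 of the 10 had an unadjusted p under 0.05 in edgeR (*Ager*, *Aqp5*, *Clic5*, *Emp2* and *Pdpn*), against 1978 of all genes, and none passed the adjusted threshold. The log2 fold change of *Ager* was then -1.16 with an SE of 0.293 (edgeR adjusted p = 0.268). Endothelial markers were lower in 10 of 10 cases here (median -0.91), the 15 intermediate genes in 15 of 15 (median -0.33) and the YAP and TAZ targets in 10 of 10 (median -0.87). Fibroblast markers were lower in 8 of 9 cases (median -0.82, with 3 without overlap), the further AT1 genes in 16 of 20 (median -0.53) and the AT2 markers in 8 of 10 (median -0.45), and *Msln* had -2.86 (edgeR adjusted p = 0.492). Their part in the AT1 values was not tested.

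**Figure D4:**
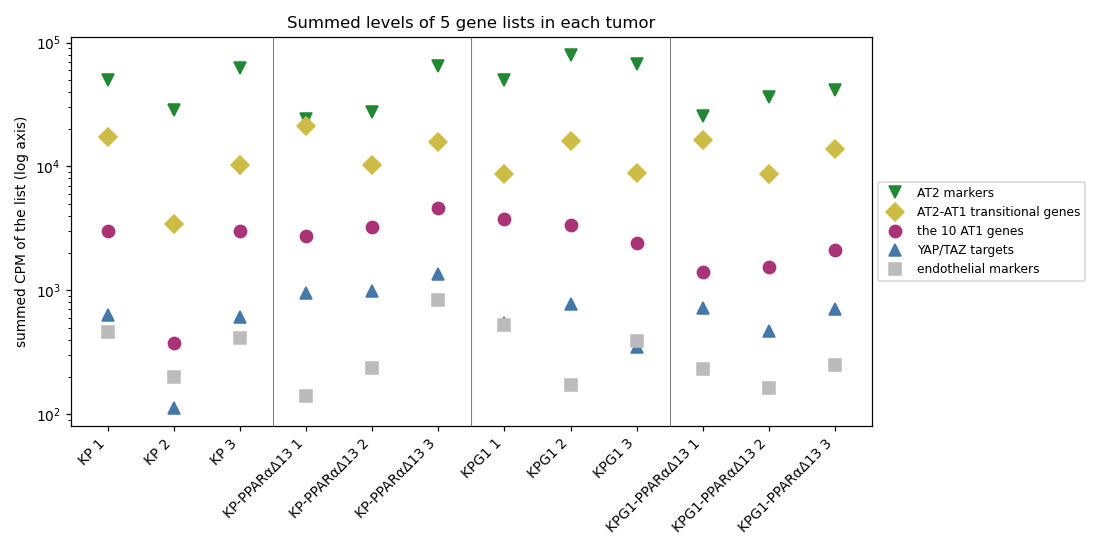
Summed level of 5 gene lists in each tumor, in CPM on a log axis, with vertical lines between the groups. In KP replicate 2 the 10 AT1 genes sum to 378 CPM, the YAP and TAZ targets to 112 CPM and the intermediate genes to 3415 CPM. Each is the lowest of the 12 tumors, while the AT2 and endothelial sums stay inside the range of the others.

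Likeness among the 10 genes was described over the 12 tumors, which come from 9 mice and share a sequencing scale. Over the 36 pairs of the 9 genes other than *Igfbp2*, Pearson's r of log2 CPM was above 0 in 36, with a median of 0.78 (range 0.30 to 0.96), and Spearman's rho had a median of 0.51 (range 0.05 to 0.94). Much of this rests on KP replicate 2. Without it the median r was 0.41 (range -0.32 to 0.89), and 29 of the 36 pairs stayed above 0. With the group means removed and all tumors kept, the median was 0.80.

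The pairs with r above 0.8 without KP replicate 2 were *Ager* with *Aqp5* (r = 0.96 with it and 0.89 without), *Aqp5* with *Clic5* (0.94 and 0.82) and *Hopx* with *Cav1* (0.78 and 0.81). Those that came apart include *Hopx* with *Pdpn* (0.79 and -0.08) and *Pdpn* with *Emp2* (0.73 and -0.05). *Igfbp2* ran against most of the others, with a median r of -0.52 over its 9 pairs, which was -0.32 without KP replicate 2 and -0.30 with the group means removed. With *Emp2* its r was -0.74, and -0.72 without KP replicate 2. Between these lay, among others, *Ager* with *Pdpn* (0.90 and 0.73), *Hopx* with *Akap5* (0.92 and 0.70), *Clic5* with *Emp2* (0.91 and 0.70) and *Ager* with *Clic5* (0.89 and 0.68). *Hopx* and *Cav1* also ran with markers of other cell types. With the summed endothelial markers *Cav1* had an r of 0.78 and 0.81, and *Hopx* 0.42 and 0.53. With the summed fibroblast markers *Cav1* had 0.67 and 0.60, and *Hopx* 0.63 and 0.75. The part of these cells in that pair was not tested.

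**Figure D5:**
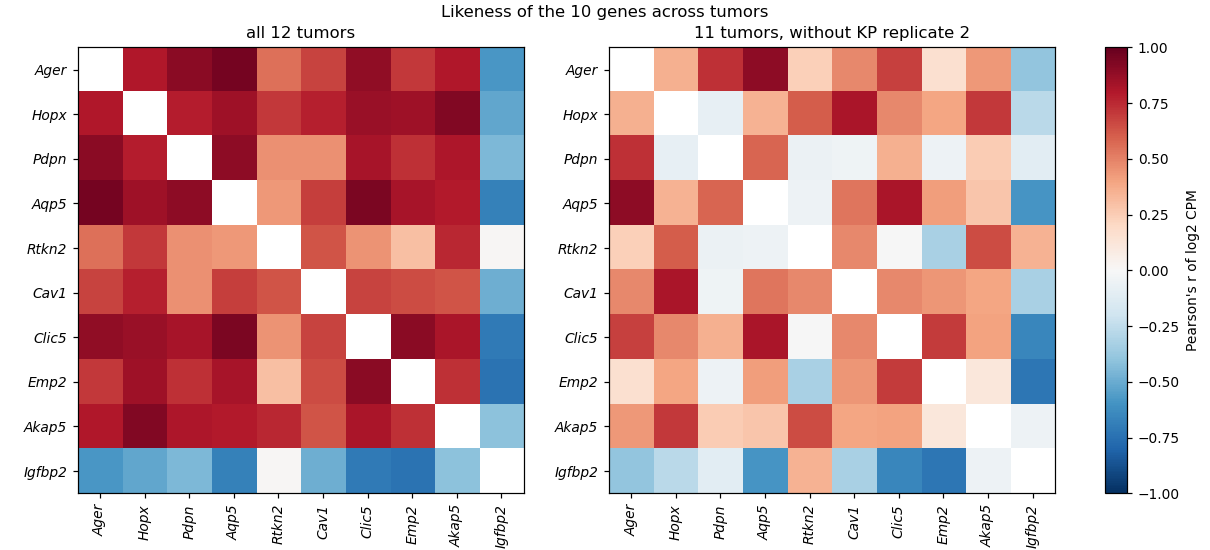
Pearson's r of log2 CPM for each pair of the 10 genes, over all 12 tumors (left) and over 11 without KP replicate 2 (right), on a color scale from -1 to 1. The block of high values on the left, with a median of 0.78 over the pairs without *Igfbp2*, thins to a median of 0.41 on the right.

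Among all genes with a mean of at least 1 CPM, those most like *Ager* were *Arhgef26*, a guanine nucleotide exchange factor (r = 0.99, rho = 0.97, and r = 0.97 without KP replicate 2), *Aqp5* (r = 0.96) and *Snx7*, a sorting nexin (r = 0.94). *Arhgef26* was also the gene after *Ager* in likeness to *Aqp5* (r = 0.95). *Wwtr1* was among the 3 most like *Hopx* (r = 0.95, rho = 0.69, and 0.77 without KP replicate 2), after *Tmem140* (r = 0.97) and just ahead of *Slc6a14*, an amino acid transporter (r = 0.95). *Emp2* was most like *Gm19557* (r = 0.97), *Angptl4*, a secreted inhibitor of lipoprotein lipase known as a PPAR target (r = 0.97, rho = 0.92), and *Tnip3* (r = 0.97, rho = 0.98), and these r were between 0.90 and 0.93 without KP replicate 2. *Clic5* was most like *Rhof*, a small GTPase (r = 0.96), *Rtkn2* most like *Mfsd2a*, a lysolipid transporter (r = 0.90), *Cav1* most like *4632428N05Rik* (r = 0.92), *Pdpn* most like *Cryab*, a small heat shock protein (r = 0.93), *Akap5* most like *Hopx* (r = 0.92) and *Igfbp2* most like *Slc23a1*, an ascorbate transporter (r = 0.94). These values were picked as the highest among all of these genes over 12 points and are a description only.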

How the data were processed

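The authors used HISAT2 and mm10 to align trimmed single-end reads of 85 nt from stranded libraries, and deposited a read count per gene and tumor. The submitters' notes name featureCounts 1.4.4, while the counting annotation is not given in the sources used here. The files of the 12 tumors equal the combined table, and the authors' deposited log2 table was not used. All 37 mitochondrial genes are listed at 0. A further allele that all mice shared is not reported here. The members and lists were chosen with earlier results of these data known. All 10 members are named. Genes of other lists could be named as one of the first 3, the most abundant, those with the highest or lowest fold change or any called, and the text gives part of these. Other genes were chosen after their values were seen.

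Counts were tested with edgeR 4.0.16 (TMM, filterByExpr, quasi-likelihood, R 4.3.3), with a single fit of all 12 tumors and p-values adjusted by Benjamini-Hochberg over 16527 genes, after a test on simulated data. P-values measure the spread between tumors, some of one mouse. Alternatives used DESeq2 1.42.0, limma 3.58.1 voom, RLE factors, no filter, the compared groups alone, sex, the replicate number, tumors summed by mouse, and each tumor left out. TPM used exon lengths and positions from GENCODE M21, which held 96.6% of gene identifiers. Log2 CPM for likeness had a prior count of 2.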

Additional observations from a re-analysis of the deposited data

How the results depend on the processing

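No member passed the threshold under any of the 770 combinations of member, comparison and alternative, and 735 of these kept the direction. The smallest adjusted p was 0.0694. The number of genes called over the whole table was 1, 1, 6, 5 and 0 in KP-PPARαΔ13 against KP, KPG1-PPARαΔ13 against KPG1, KPG1 against KP, KPG1-PPARαΔ13 against KP-PPARαΔ13 and the difference. With DESeq2 it was 372, 211, 60, 155 and 286. It was 0 in the first comparison with sex as a covariate, the compared groups alone or tumors summed by mouse, and 2 without a filter. It was 0 in the second with the compared groups alone, tumors summed by mouse or voom, and 2 without KP replicate 2, which is in neither group. In the third it was 2 with sex, 10 with the groups alone and 2 with tumors summed by mouse. In the fourth it was 2 with sex, 2 with tumors summed by mouse and 10 without KP replicate 2, also in neither group. Leaving out a tumor of the compared groups gave 0 to 1, 0 to 2, 2 to 3 and 2 to 4, and 0 for the difference. The causes were not tested. With the replicate number as a block the counts were 0, 2, 4, 3 and 0, while same-numbered tumors had correlations of -0.168 to 0.0896 and share only a number.

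Leaving out single tumors spread the log2 fold change in KP-PPARαΔ13 against KP from -0.18 to 0.85 for *Ager*, -0.33 to 0.76 for *Pdpn*, -0.73 to 0.45 for *Rtkn2* and -0.05 to 1.52 for *Akap5*. In KPG1-PPARαΔ13 against KPG1 it was -0.58 to 0.35 for *Rtkn2*, -0.53 to 0.14 for *Cav1* and -0.31 to 0.09 for *Emp2*. In KPG1 against KP it was -0.07 to 0.96 for *Ager*, -0.08 to 1.15 for *Hopx*, -0.73 to 0.20 for *Rtkn2*, -0.34 to 0.31 for *Cav1* and -0.21 to 1.20 for *Akap5*. For *Rtkn2* it was -0.88 to 0.40 in KPG1-PPARαΔ13 against KP-PPARαΔ13 and -0.63 to 0.65 for the difference. With sex as a covariate *Pdpn* had -0.48 in the first comparison and -0.10 in KPG1 against KP. With tumors summed by mouse *Rtkn2* had -0.07 in the first comparison, 0.08 in the second and 0.16 for the difference, and *Cav1* -0.08 and *Akap5* -0.06 in KPG1 against KP. With voom *Rtkn2* had 0.13 in KPG1-PPARαΔ13 against KPG1. Voom also gave higher values against KP, in KP-PPARαΔ13 for *Pdpn* (1.39 in place of 0.24), *Aqp5* (1.78 in place of 0.74) and *Clic5* (2.62 in place of 1.57). There it also gave *Ager* 0.85 in place of 0.33, *Hopx* 1.35 in place of 0.83 and *Akap5* 1.24 in place of 0.64. In KPG1 it did so for *Pdpn* (2.12 in place of 0.83), *Aqp5* (1.84 in place of 0.73), *Clic5* (1.88 in place of 0.91) and *Akap5* (1.04 in place of 0.32). *Ager* had 0.99 there in place of 0.44 and *Hopx* 0.97 in place of 0.42. Without a change of sign, single tumors also moved values by over 1.5 times. In KP-PPARαΔ13 against KP, *Clic5* ranged from 1.00 (without KP replicate 2) to 2.5 (without KP replicate 3), *Aqp5* from 0.03 (without KP-PPARαΔ13 replicate 3) to 1.15 and *Hopx* from 0.33 to 1.56. In KPG1-PPARαΔ13 against KPG1, *Clic5* ranged from -1.73 (without KPG1-PPARαΔ13 replicate 3) to -0.62. On doxycycline *Aqp5* was -1.01 without KP-PPARαΔ13 replicate 3 and *Pdpn* -0.38 without KP-PPARαΔ13 replicate 1. In KPG1 against KP, *Pdpn* ranged from 0.27 to 1.35, *Aqp5* from 0.16 to 1.14 and *Clic5* from 0.35 to 1.85.

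With 3 tumors a group, smaller changes of single genes can be missed, and the number of genes called depended on the tool. With the longest transcript as gene length, the median levels of all 10 genes moved by less than 1 SD. Among the 10 genes, depth limits *Igfbp2* most.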
